A study of Homo sapiens with 8 samples.

Results

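A stronger and a weaker *TET1* knockdown clone, both derived from the colorectal carcinoma cell line HCT116, were compared with and without a demethylating drug. TET1-KD1 and TET1-KD2 were each isolated as a single GFP-positive colony after transfection with a vector that encodes an artificial miRNA against *TET1*, with a different miRNA in each clone, and TET1-KD1 is the clone with the lower *TET1* signal. CONT1 and CONT2 were isolated in the same way after transfection with a control vector. All 4 clones were selected with G418, and each was analyzed untreated and after 72 h with 1 µM 5-aza-dC, renewed daily. The members are the 4 arrays of the knockdown clones, of 8 arrays in the series, chosen by clone and treatment labels and not by any measured value. There was 1 array for each clone and treatment, so the comparison was made within each treatment and then over both. The strength of the knockdown, the miRNA sequence and the clone cannot be told apart, because each differs between TET1-KD1 and TET1-KD2 at once.

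TET1 is a dioxygenase that oxidizes 5-methylcytosine in DNA to 5-hydroxymethylcytosine, a step on the way to removal of the methyl group. TET2 and TET3 catalyze the same reaction. 5-aza-dC (decitabine) is a cytosine analog that is built into DNA during replication and traps DNA methyltransferases, so that newly made DNA loses methylation, and genes silenced by promoter methylation can be transcribed again. Tumor suppressor genes, genes normally used only in germ cells and genes of the interferon response are well known to be switched on by it in colorectal cancer cells.

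The values are log2 fluorescence signals of 60-base probes, after each array was divided by the 75th percentile of its own spots and returned to a common scale. A probe was tested if it was well above background on at least 1 of the 4 knockdown arrays, which held for 29669 probes. The 4 arrays were alike in quality. The 75th percentile of the signal was 600.1 and 574.3 in untreated TET1-KD1 and TET1-KD2, and 623.7 and 595.6 after 5-aza-dC. Before scaling, 8 synthetic spike-in transcripts differed between the clones by at most 0.09 on the log2 scale in untreated cells. After 5-aza-dC they differed by at most 0.081. Scaling shifts these differences by the ratio of the percentiles, which is not included. All 4 lay on 1 slide, with the untreated control arrays. Both treated control arrays were on another slide, where spike-ins before scaling lay from 1.01 below to 0.02 above those of the treated knockdown arrays. The 75th percentiles were also lower there, at 395.5 and 476.1, so scaling raises these spike-in values. Levels of treated knockdown clones are therefore not set against treated controls in a test here. The labels conflict on the treatment, since a separate field marks every knockdown array as drug-treated and every control array as mock, whereas the titles give each clone both ways. The titles were followed. The epithelial markers EPCAM, CDH1, KRT8, KRT18 and KRT19 were above background on all 4 arrays, with log2 signals from 10.00 to 17.73, and so was the intestinal factor CDX2, from 10.33 to 10.80. The enterocyte genes VIL1, CDH17 and LGALS4 were not above background in untreated cells.

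The *TET1* signal was lower in TET1-KD1 than in TET1-KD2 on both probes of the gene, though by little on the second after 5-aza-dC. Sample titles number the clones without ranking the knockdown, so these values describe the order of the clones and do not test it. With the brighter probe (chromosome 10, 70332072 to 70332131 in hg19), the log2 signal was 8.65 in TET1-KD1 and 9.41 in TET1-KD2 without treatment, against 9.70 in CONT1 and 9.75 in CONT2. After 5-aza-dC it was 8.99 in TET1-KD1 and 9.48 in TET1-KD2, against 9.64 in both control clones. Untreated TET1-KD1 thus had 47.6% and TET1-KD2 80.6% of the mean signal of the control clones. The second probe (70454164 to 70454223) read 4.56 in TET1-KD1 and 5.71 in TET1-KD2 without treatment, but 4.77 and 4.91 after it, a difference of only 0.14. The mean difference over both treatments was -0.63 (standard error 0.17) with the brighter probe and did not pass after correction (adjusted p = 0.338 from limma, 4 arrays). *TET2* went the other way. Its brightest probe read 8.34 in TET1-KD1 and 7.78 in TET1-KD2 without treatment, and 8.57 and 7.98 after 5-aza-dC, and its other 2 probes were also higher in TET1-KD1 in both treatments, by 0.48 to 0.97. The untreated controls read 7.67 and 7.71 on the brightest probe, next to TET1-KD2. The mean difference was 0.57 (standard error 0.15, adjusted p = 0.333, limma). Of the 21 measured genes of the oxidation and base-excision route, none differed 2-fold in both treatments. Over all 16085 named genes, only 1.14% were higher and 1.45% lower in this way, so the absence does not set the route apart.

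The knockdown clones differed from each other more than the control clones did, and their differences repeated better from one treatment to the other. Over the 20938 probes above background on all 8 arrays, the root mean square of the log2 difference between TET1-KD1 and TET1-KD2 was 0.52 without and 0.47 with 5-aza-dC, against 0.32 and 0.38 between CONT1 and CONT2. Across those probes, which are not independent replicates, the untreated and the treated difference correlated with r = 0.60 in the knockdown and 0.34 in the control clones. The knockdown arrays shared a slide, whereas treated and untreated controls lay on different slides. The treated control arrays were also dimmer, with 75th percentiles of 395.5 and 476.1. How much slide and brightness bear on these contrasts was not tested. A difference of at least 2-fold in the same direction in both treatments, with the higher clone above background, was found for 367 probes higher in TET1-KD1 (1.24% of those tested) and 379 lower (1.28%). The same count between the control clones was 91 probes higher in CONT1 (0.307%) and 45 lower (0.152%). Tested probes were chosen on the knockdown arrays, so probes above background only in a control clone are missing from the control counts. The counts of the 2 kinds of clone are therefore not on equal terms. A 2-fold difference after 5-aza-dC only, with an untreated difference under 0.5 on the log2 scale or neither clone above background before treatment, was found for 630 probes higher (2.12%) and 1465 lower (4.94%) in TET1-KD1, against 810 higher (2.73%) and 297 lower (1.0%) in CONT1. Where a clone was not above background, its level is only an upper bound. With that level raised to the dimmest signal called above background on the array, 268 and 332 of the probes held in both treatments and 350 and 901 of those after 5-aza-dC kept a 2-fold difference.

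No probe passed the test of the mean clone difference, in which 4 arrays leave 1 residual degree of freedom (limma with treatment as a block, Benjamini-Hochberg adjusted p, 0.0% called, smallest adjusted p = 0.313). At an unadjusted p below 0.05 there were 4145 probes, or 14.0%, against 2245 or 7.57% for the control clones. The outcome depended on how the variance was modeled. With a prior variance that follows the probe's intensity, an alternative added after the data were seen, 561 probes were called higher (1.89%) and 638 lower (2.15%) in TET1-KD1, and 0 between the control clones, where 3179 had an unadjusted p below 0.05. The control fits used the same probes, chosen on the knockdown arrays, and arrays from different slides. Calls were also made with normexp background correction (408), with probes above background on all 4 arrays (587) and with the spread taken between the control clones (534). The clones are single isolates, so these p-values measure how the difference repeats between treatments and not how it would vary between clones of the same kind.

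**Figure D1:**
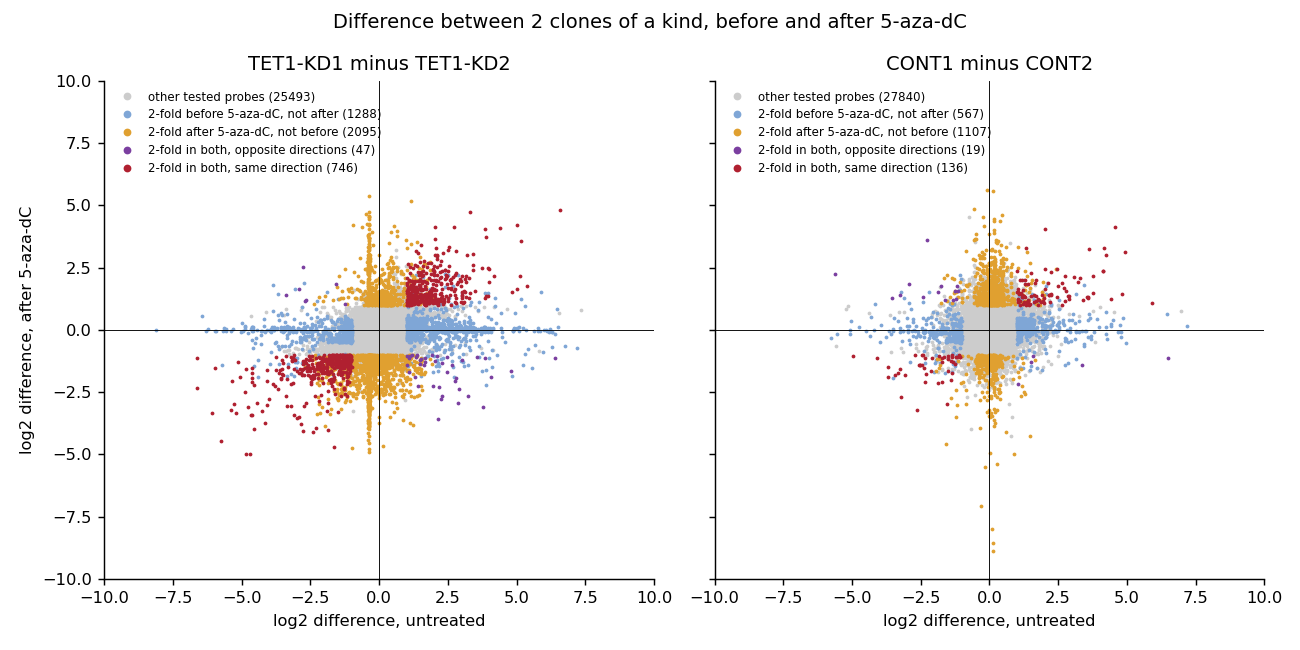
Each point is 1 of 29669 tested probes, with the log2 difference in untreated cells on the x axis and after 5-aza-dC on the y axis, for TET1-KD1 minus TET1-KD2 (left) and CONT1 minus CONT2 (right). The 746 probes with a 2-fold difference in the same direction in both treatments extend along the diagonal in the knockdown clones, against 136 in the control clones, and the vertical band left of 0 holds probes not above background in either untreated knockdown clone. Tested probes were chosen on the knockdown arrays.

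Genes that were lower in TET1-KD1 in both treatments were led by several that both control clones and TET1-KD2 expressed. By the brightest probe of each of 16085 named genes, 234 were lower (1.45%) and 183 higher (1.14%) by 2-fold or more in both treatments. *S100A4*, a calcium-binding protein linked to cell motility and metastasis, is encoded on chromosome 1 (probe 153516198 to 153516257). Its log2 signal was 9.27 in TET1-KD1 and 14.03 in TET1-KD2 without treatment, 10.43 and 13.53 after 5-aza-dC, and between 13.12 and 15.11 on the 4 control arrays. TET1-KD1 was thus 27.1-fold lower without and 8.54-fold lower with the drug, and stood outside all 6 other arrays. *CA8*, a protein of the carbonic anhydrase family without that activity, was not above background in TET1-KD1 (2.26 and 2.59) and read 7.12 and 7.58 in TET1-KD2 and 6.83 to 7.67 in the controls. The difference was at least 7.31-fold without and at least 11.2-fold with treatment. *NFIB*, a nuclear factor I transcription factor, read 3.60 and 4.83 in TET1-KD1 against 9.68 and 8.16 in TET1-KD2, and its 3 other probes had the same sign in both treatments. *EPB41L4A*, a band 4.1 family gene, read 3.42 and 4.59 against 8.09 and 8.02, and *CALB2*, which encodes the calcium-binding protein calretinin, 3.88 and 4.43 against 7.10 and 7.49. In each of these genes the control clones lay closer to TET1-KD2 than to TET1-KD1. Of the 12 genes with the largest difference in this direction, all but *TIAM1* and *S100A4* were not above background in untreated TET1-KD1.

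Not every gene of this group set TET1-KD1 apart from the rest. *SATB1*, a chromatin organizer, read 3.25 in TET1-KD1 and 7.79 in TET1-KD2 without treatment, but 3.79 in CONT1 and 7.11 in CONT2, so that the controls were split in the same way. *DCLK1*, a kinase known as a marker of tuft cells in the gut, was on only in TET1-KD2 among the untreated clones, with 6.77 against 2.06, 2.25 and 2.02. After 5-aza-dC it read 8.64 in TET1-KD2, 3.64 in TET1-KD1, 7.62 in CONT1 and 4.11 in CONT2. *CDK14* read 2.58 and 4.33 in TET1-KD1 against 7.98 and 7.54 in TET1-KD2, *C1orf21* 4.18 and 4.90 against 8.27 and 7.91, *ZNF704* 1.96 and 1.79 against 5.30 and 4.84, and *PRKCQ*, a protein kinase C of T cells, 2.03 and 3.41 against 6.30 and 6.66. Of the 12 genes with the largest difference in this direction, 7 had only TET1-KD1 outside the range of the untreated controls by more than 0.5 on the log2 scale, and *DCLK1* had only TET1-KD2 outside it. Over all 379 probes of the group, TET1-KD1 was the further of the 2 from the mean of the untreated controls at 334 (88.1%).

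Among genes higher in TET1-KD1 in both treatments, 11 of the 12 with the largest difference were not above background in untreated TET1-KD2. *SNTG2*, a syntrophin of the dystrophin complex, read 9.05 and 8.25 in TET1-KD1 and was not above background in TET1-KD2 (2.46 and 3.44) or on any control array (2.04 to 3.31). The difference was at least 21.7-fold without and at least 17.0-fold with treatment. *GRHL3*, an epithelial transcription factor, read 7.31 and 10.11 in TET1-KD1 against 4.8 and 6.89 in TET1-KD2, with controls at 5.76 and 4.93 without and 7.16 and 7.27 with the drug. *TGFBI*, an extracellular matrix protein induced by TGF-β, read 6.34 and 8.94 in TET1-KD1 against 2.36 and 6.45 in TET1-KD2. *SPATA18*, a p53 target that acts in mitochondrial quality control, read 6.37 and 7.91 against 2.36 and 5.45. In *GRHL3*, *TGFBI* and *SPATA18* the treated signal was above the untreated one in both knockdown clones, and TET1-KD1 stayed the higher clone.

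Other genes of this group did not follow that pattern. *SEMA3A*, a secreted guidance cue, read 6.32 and 5.28 in TET1-KD1 against 2.90 and 2.69 in TET1-KD2, and *MARCHF4* (named *MARCH4* in the files), a membrane ubiquitin ligase, 5.6 and 6.59 against 2.29 and 1.84. *TTN* read 7.07 and 6.08 against 2.68 and 1.99, but also 8.70 in untreated CONT1. For *ZNF91*, a KRAB zinc finger repressor of retroelements, the clone that stood apart was TET1-KD2. It read 2.37 and 1.85 there and was not above background, against 6.24 and 5.59 in TET1-KD1 and 4.88 to 5.64 in the controls. *ZNF595* was likewise lower in TET1-KD2, at 2.5 and 3.92, than in TET1-KD1, at 7.66 and 7.52. Over the 367 probes, TET1-KD1 was the further from the untreated controls at 307 (83.7%). All 24 genes of the lists of 12 in each direction had an adjusted p of 0.313 in limma, and all but *ZNF704* (adjusted p = 0.0683) passed with the intensity trend. The genes were chosen for large differences in both treatments on the same arrays, so these passes are no separate support. Where a gene of these groups had other tested probes, 45 of 52 higher and 64 of 69 lower genes had the same sign on all of them in both treatments.

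**Figure D2:**
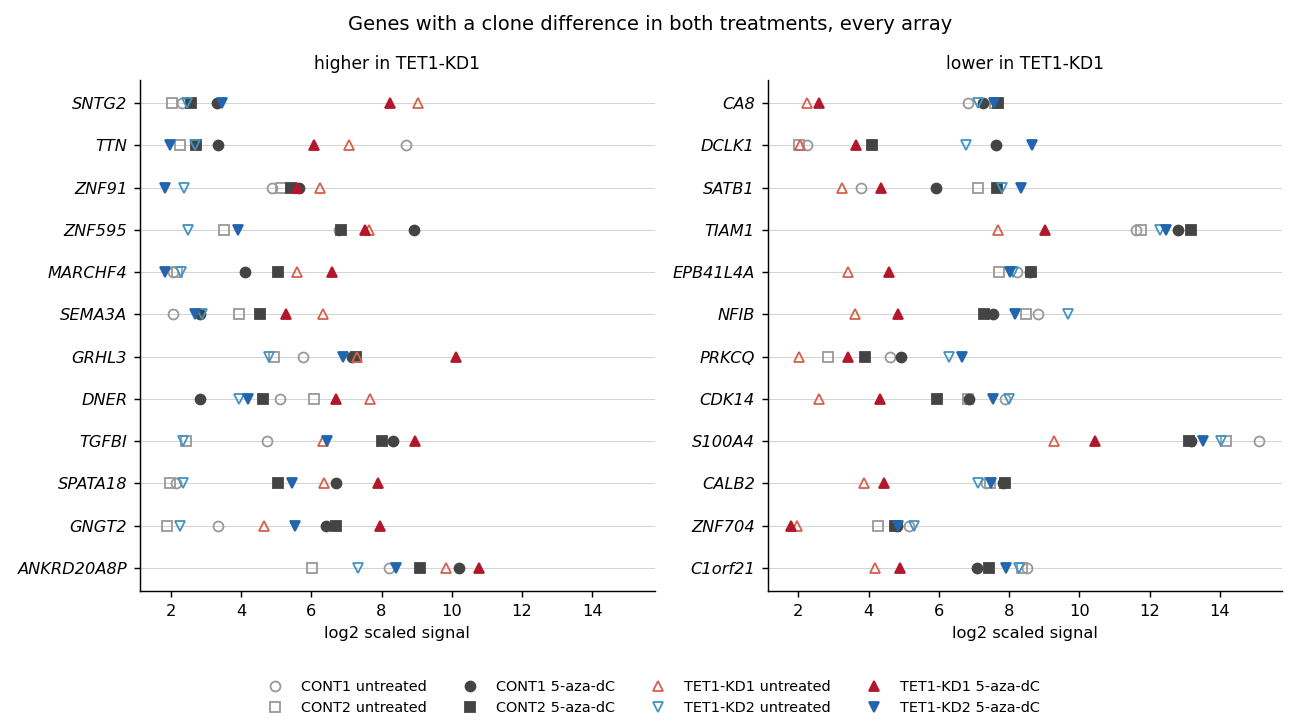
Log2 scaled signal (x axis) on each of the 8 arrays for the 12 genes with the largest difference held in both treatments in each direction. Open symbols are untreated cells and filled symbols cells after 5-aza-dC. In the right panel the 2 TET1-KD1 triangles lie left of the TET1-KD2 triangles in every gene, with S100A4 at 9.27 and 10.43 against 14.03 and 13.53.

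Chromosome 21 stood out as a whole. Over 230 probes above background on all 8 arrays, the median log2 difference was -0.63 in untreated cells and -0.66 after 5-aza-dC, a TET1-KD1 signal of 0.646 and 0.635 times that of TET1-KD2. The medians of the 22 other chromosomes (1 to 20, 22 and X) lay between -0.05 and 0.12 without and -0.09 and 0.17 with the drug, and between CONT1 and CONT2 no chromosome lay outside -0.05 to 0.06. TET1-KD1 was lower at 187 of the 230 probes (81.3%) without and 192 (83.5%) with treatment. TET1-KD1 was also the clone that left the controls, with a median of -0.65 against the mean of the untreated control clones, whereas TET1-KD2 was at 0.01. In windows of 10 Mb (hg19), the median was -0.63 and -0.69 over 85 probes from 30 to 40 Mb and -0.70 and -0.69 over 110 probes from 40 to 50 Mb. From 10 to 20 Mb, with 20 probes, it was only -0.07 and -0.27. DNA copy number was not measured on these arrays, and its part in this shift was not tested.

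Chromosome 21 held 39 of the 379 probes that were 2-fold lower in TET1-KD1 in both treatments (10.3%), with 1.27% of the probes tested. *TIAM1*, an activator of the GTPase Rac, read 7.67 and 9.02 in TET1-KD1 against 12.30 and 12.45 in TET1-KD2 and 11.61 to 13.16 in the controls (probe 32490830 to 32490889), a difference of 24.8-fold and 10.8-fold. The 2 collagen VI genes of this chromosome had smaller differences, and were the only ones of 21 measured collagens 2-fold lower in both treatments, beside 1.45% of all 16085 genes. *COL6A1* read 10.69 and 10.99 against 12.46 and 13.10, and *COL6A2* 6.71 and 7.92 against 9.12 and 9.74. *LSS*, lanosterol synthase of the cholesterol pathway, read 8.41 and 8.83 against 10.99 and 10.63, and *CBS*, which makes cystathionine from homocysteine, 5.08 and 9.87 against 6.49 and 12.05. All of these, named for their large differences, are larger than the shift of the chromosome as a whole. Of the 18 measured collagens on other chromosomes, 9 were lower in TET1-KD1 without and 5 with 5-aza-dC. Those 2-fold higher in both treatments were *COL12A1* at 12.90 and 12.18 against 10.89 and 9.97 and *COL17A1* at 6.98 and 7.67 against 5.26 and 5.39. Of 277 windows in the genome, the only other one with a median over 0.5 in size was on chromosome 19 from 20 to 30 Mb, with 0.60 and 0.58 over 54 probes, of which 26 belonged to genes named ZNF. There CONT1 was also higher than CONT2, by 0.16 and 0.34.

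**Figure D3:**
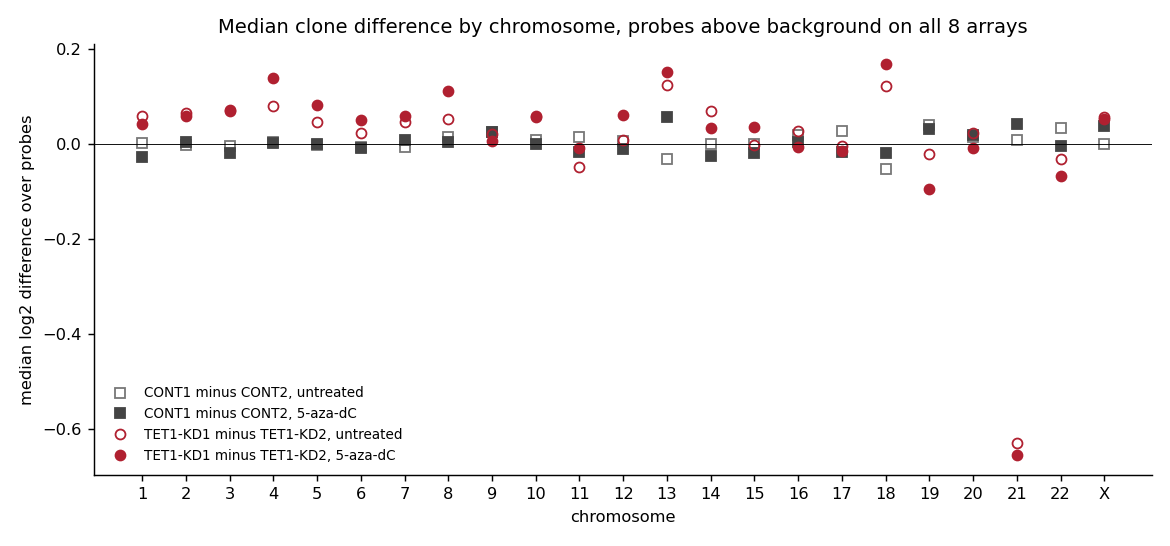
Median log2 difference per chromosome (y axis) over probes above background on all 8 arrays, for TET1-KD1 minus TET1-KD2 (circles) and CONT1 minus CONT2 (squares), untreated (open) and after 5-aza-dC (filled). Chromosome 21 lies at -0.63 and -0.66 in the knockdown clones, and all other medians lie between -0.09 and 0.17.

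Interferon-stimulated genes were lower in TET1-KD1, and more so after 5-aza-dC. These genes are switched on through JAK and STAT signaling when interferon binds its receptor, and many encode proteins that restrict viruses. Of 39 measured genes of the list, 30 were lower in TET1-KD1 without and 36 with the drug. Their median log2 difference was -0.41 and -0.91, beside 0.01 and 0.00 over all genes. By 2-fold or more in both treatments, 7 were lower and 0 higher, and after 5-aza-dC only, 7 were lower and 1 (*TRIM22*) higher, where 1.45% and 4.45% of all 16085 genes were lower in these ways. None passed in limma's main test, and 13 were called lower and 0 higher with the intensity trend, by which 2.75% of all genes were called lower. The control clones also differed on this list after 5-aza-dC, with a median of -0.44 for CONT1 minus CONT2, and of 0.12 without it. Leaving out *MX1* and *MX2*, which lie on chromosome 21, left the medians at -0.41 and -0.91. This removes only the listed genes of that chromosome, and whether its shift bears on the other genes of the list was not tested.

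*IFITM1*, a membrane protein that blocks entry of viruses, had the largest mean difference of the list by its brightest probe. It read 5.46 in TET1-KD1 and 8.45 in TET1-KD2 without treatment, 7.71 and 11.27 after 5-aza-dC, and 9.83 and 8.96 in untreated and 10.58 and 11.29 in treated CONT1 and CONT2. TET1-KD1 was below all other arrays of the same treatment, and 7.94-fold and 11.8-fold below TET1-KD2 (mean log2 difference -3.27, standard error 0.23, adjusted p = 0.313 in limma and 0.00704 with the intensity trend). *BST2*, tetherin, which holds budding virus at the cell surface, read 3.97 in TET1-KD1, where it was not above background, and 6.17 in TET1-KD2, then 6.67 and 9.53 after the drug, and its other probe had a larger difference, at 2.13 and 6.59, then 7.06 and 10.01. *MX1*, a GTPase against influenza and other viruses, read 3.83 (not above background) and 5.46 without and 5.29 and 10.00 with 5-aza-dC, a difference of at least 2.32-fold without and 26.2-fold with the drug. *IFI6* read 8.35 and 9.58, then 8.66 and 11.23. *IFIT2* and *IFIT3*, antiviral proteins of the IFIT family, were lower in TET1-KD1 by 2.14 and 1.70 without and by 1.42 and 2.07 with treatment on the log2 scale, and the RNA sensor *IFIH1* by 1.14 and 1.56. *IRF9*, a transcription factor of the pathway, read 8.10 and 8.87 without and 8.66 and 10.41 with the drug, a smaller untreated difference. Some genes of the list did not follow. *OAS1*, which makes the activator of RNase L, read 6.13 in TET1-KD1 against 3.27 in TET1-KD2 without and 1.75 against 4.68 with 5-aza-dC, where the lower value of each pair was not above background. *ISG15* also turned, with 14.38 against 13.71 without and 14.92 against 15.52 with the drug. *SAMD9* was higher in untreated TET1-KD1, at 6.70 against 5.25, and alike after treatment, at 6.21 and 6.20. Over the list the median response to the drug was 0.03 in TET1-KD1 and 0.44 in TET1-KD2, and -0.05 and 0.52 in CONT1 and CONT2.

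The promoters of 2 of these genes are shown as examples of those lower in both treatments that carry a known interferon element. Each is the 250 bases before the annotated start on the gene's strand, from RefSeq on GRCh38.p14, which is not the build of the array (hg19). Capitals mark 2 copies of GAAA separated by 2 bases of any kind, or the same on the other strand (TTTC), a short form of the element that interferon-activated factors bind. Overlapping matches run together. IFITM1 holds 1 match and BST2 2.
IFITM1, chr11:313790-314039, plus strand: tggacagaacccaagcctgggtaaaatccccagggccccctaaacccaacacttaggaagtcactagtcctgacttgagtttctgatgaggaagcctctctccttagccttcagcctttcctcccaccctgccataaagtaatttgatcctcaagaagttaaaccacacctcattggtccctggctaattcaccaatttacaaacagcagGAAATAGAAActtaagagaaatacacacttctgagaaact
BST2, chr19:17405631-17405880, minus strand: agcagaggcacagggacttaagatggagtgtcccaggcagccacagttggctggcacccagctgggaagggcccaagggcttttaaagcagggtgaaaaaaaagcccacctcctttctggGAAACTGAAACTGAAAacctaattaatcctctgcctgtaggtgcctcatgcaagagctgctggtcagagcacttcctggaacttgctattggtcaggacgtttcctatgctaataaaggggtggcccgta
Of the 29 genes of the list with a promoter in the reference, 18 held the motif (62.1%), including 5 of the 6 that were 2-fold lower in both treatments, against 3.07% of all 27305 promoters. A match describes the letters only.

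**Figure D4:**
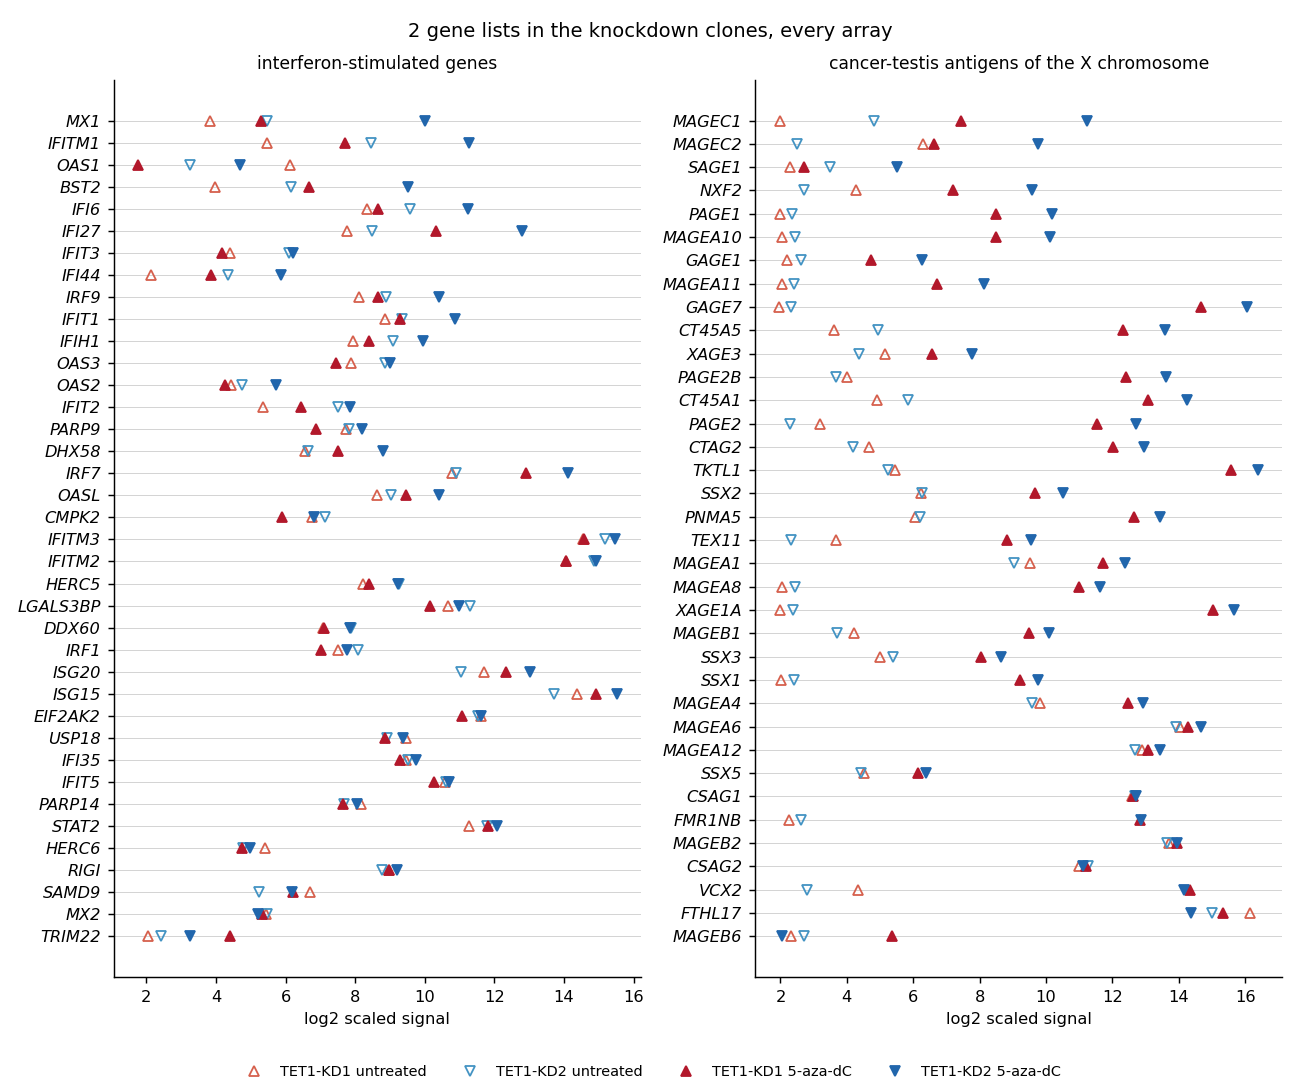
Log2 scaled signal (x axis) of the measured interferon-stimulated genes (left, all but 1) and X-chromosome cancer-testis antigen (right) on the 4 knockdown arrays, ordered by the difference after 5-aza-dC. After treatment TET1-KD1 (filled up-triangles) was below TET1-KD2 (filled down-triangles) in 35 of the 38 and 31 of the 36 genes drawn.

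The differences that appeared only after 5-aza-dC were mostly of genes with no detectable signal in either untreated knockdown clone. This held for 1275 of the 1465 probes lower in TET1-KD1 (87.0%) and 399 of the 630 higher (63.3%). The rule for this group admits such probes whatever their untreated difference, which partly fixes these shares. By genes, 716 were lower (4.45%) and 226 higher (1.41%). Among probes above background on all 4 knockdown arrays the excess was not present, with 145 lower and 171 higher. A split of this size was also seen between the control clones, where 73.2% of such probes were higher in CONT1, against 69.9% lower in TET1-KD1, so the imbalance by itself does not set the knockdown clones apart. Of the genes that had other tested probes, 80 of 88 lower and 32 of 39 higher ones showed the same sign on all of them after treatment. Those probes read the same arrays, so they do not show whether a difference would repeat in another culture.

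*TXNIP*, an inhibitor of thioredoxin that also limits glucose uptake, was not above background in any untreated clone. After 5-aza-dC it read 6.21 in TET1-KD1 and 10.36 in TET1-KD2, and 10.62 and 10.37 in CONT1 and CONT2, so TET1-KD1 was 17.8-fold below TET1-KD2 and also below both controls. *SOHLH2*, a germ-cell transcription factor, read 5.42 in TET1-KD1 and 10.15 in TET1-KD2, against 7.19 and 5.63 in the controls, so here TET1-KD2 was the clone apart. *GBP5* and *GBP2*, interferon-inducible GTPases that were not on the fixed list, read 3.22 and 1.88 in TET1-KD1, where neither was above background, and 7.5 and 5.74 in TET1-KD2. The differences were at least 10.6-fold and at least 3.15-fold, and treated control clones read 7.97 and 7.89 for *GBP5* and 5.39 and 5.00 for *GBP2*. *LEF1*, a transcription factor of the WNT pathway, was not above background in TET1-KD1 (4.12) and read 6.59 in TET1-KD2, with 8.54 and 7.94 in the controls. *TWIST2* and *GATA5*, transcription factors often methylated in tumors, read 3.39 (not above background) and 5.62 in TET1-KD1 against 5.97 and 7.84 in TET1-KD2. In *GBP5*, *LEF1*, *TWIST2* and *GATA5* the treated controls lay at or above TET1-KD2.

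The largest difference of this kind in either direction was often carried by 1 array. Of the 12 genes with the largest lower value in TET1-KD1, 5 (*TAC1*, *LMNTD1*, *SOX3*, *TSPAN19* and *HAND2*) were above background on the treated TET1-KD2 array alone of all 8. Of the 12 with the largest higher value, 10 were above background on the treated TET1-KD1 array alone, including *ANKRD30A* at 6.61 against 1.96 in TET1-KD2 and *OR2D2* at 6.45 against 1.86. The exceptions were *TRIM58*, a ubiquitin ligase, with 8.05 in TET1-KD1, 3.51 in TET1-KD2 and 5.62 and 5.83 in the controls, and *MDGA2*, with 5.72 in TET1-KD1, 1.94 in TET1-KD2 and 7.01 and 7.09 in the controls. There the treated controls also expressed the gene. Of 18 measured keratins, 9 were higher in TET1-KD1 after treatment. Among those 2-fold different after 5-aza-dC only, *KRT5* and *KRT6B* of basal epithelia were higher, at 7.52 against 4.62 and 9.02 against 6.35, and *KRT13* was lower, at 7.40 against 8.62. In both treatments *KRT6A* was 2-fold higher and *KRT23* 2-fold lower.

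Probes that 5-aza-dC raised in both control clones responded less in TET1-KD1 than in TET1-KD2. Probes with a response (treated minus untreated) of 1 or more on the log2 scale in both control clones, and above background in both after treatment, were taken, 3361 of the tested probes. Their median response was 1.69 in TET1-KD1 and 2.31 in TET1-KD2, and the response was smaller in TET1-KD1 at 2347 probes (69.8%). The filter on tested probes uses the knockdown arrays. Without it, with probes chosen in the control arrays alone, there were 3471 probes with medians of 1.62 and 2.21, and the response was smaller in TET1-KD1 at 69.2%. Of the 3361, by 1 or more, it was smaller at 834 probes and larger at 186. A 2-fold response was seen at 2116 of these probes in TET1-KD1 and 2469 in TET1-KD2. The part of them with no detectable signal in untreated controls (1542 probes) had median responses of 2.97 and 3.44, and the part above background in both (1575 probes) of 0.65 and 1.07. In each part the smaller response was that of TET1-KD1. CONT1 responded less than CONT2 at 49.2% of the 3361 probes, a share that the choice of probes in these clones partly fixes. Probes lower by 1 or more after treatment in both controls (2940) had median responses of -0.29 in TET1-KD1 and -0.39 in TET1-KD2. In CONT1 and CONT2 they were -1.57 and -1.60, sizes that the choice of probes partly fixes. Treated and untreated control arrays lay on different slides, unlike those of the knockdown clones. Before scaling, spike-ins of the treated controls lay from 1.01 below to 0.02 above those of the treated knockdown arrays. How much of the control responses, and so of the choice of the 3361 and 2940 probes, came from the slide was not tested. The test of single probes for a different response in the 2 clones, over 8 arrays, called none (limma, adjusted p, 0.0%, smallest 0.259), with 2696 at an unadjusted p below 0.05, and 47 were called with normexp background correction.

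**Figure D5:**
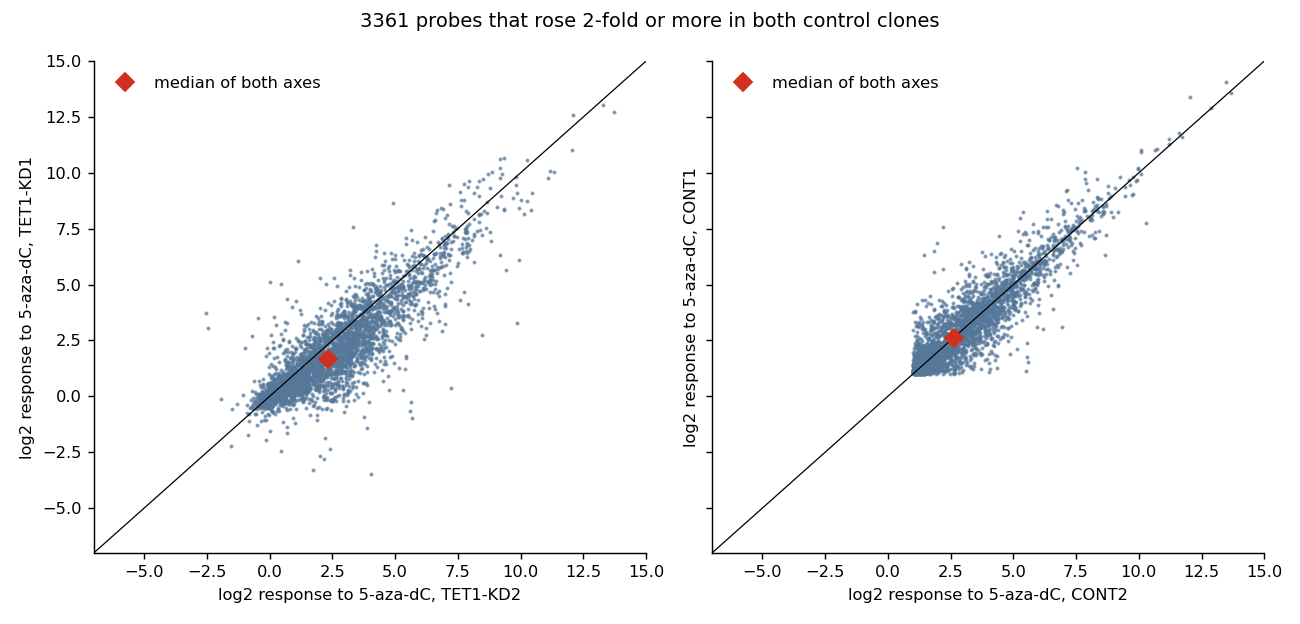
Log2 response to 5-aza-dC (treated minus untreated) of the 3361 probes with a response of at least 1 in both control clones, TET1-KD1 against TET1-KD2 (left) and CONT1 against CONT2 (right), with the line of equal responses. The diamond, at the medians of 1.69 and 2.31 in the left panel, lies below the line, and the edge at 1 in the right panel comes from the choice of probes.

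All 4 genes of a list of silenced genes, each known for promoter methylation in colorectal cancer, were lower in TET1-KD1 after the drug by their brightest probes, in amounts from 0.14 to 1.40. *SFRP1*, a secreted WNT antagonist, was not above background without treatment and read 6.21 in TET1-KD1 and 7.02 in TET1-KD2 after it, with 7.47 and 6.99 in the controls. *SFRP2*, of the same family, read 3.2 in TET1-KD1, not above background, and 4.60 in TET1-KD2, with 4.74 and 5.5 in the controls. *SOX17*, a transcription factor that opposes β-catenin, read 6.95 and 7.61, with 8.15 and 8.0 in the controls. *DKK3*, a Dickkopf family protein, read 5.52 and 5.66, with 5.71 and 5.46 in the controls, and its other probe was higher in TET1-KD1 by 0.43. None of the 4 passed in limma, with adjusted p-values from 0.313 to 0.564 for the clone difference.

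Cancer-testis antigens of the X chromosome, genes of normal testis that many tumors express, had a median response of 4.90 in TET1-KD1 and 6.65 in TET1-KD2 over 36 measured genes, with 5.73 in CONT1 and 5.18 in CONT2 between them, and 31 of 36 were lower in TET1-KD1 after treatment. The median difference was -0.06 without and -0.75 with 5-aza-dC. *GAGE7* read 1.95 and 2.32 in untreated TET1-KD1 and TET1-KD2 and 14.66 and 16.06 after the drug, *PAGE1* 1.99 and 2.36, then 8.50 and 10.17, and *MAGEA10* 2.04 and 2.42, then 8.48 and 10.12. Near-identical copies of GAGE, PAGE and MAGE genes may share these probes. *MAGEC1* was lower in TET1-KD1 before treatment too, at 1.98 against 4.82, and read 7.44 against 11.22 after it, with controls at 7.38 and 7.57, so TET1-KD2 was the clone apart. *MAGEB6* was the exception among those that differed 2-fold after treatment, with 5.37 against 2.04. Germline genes of the autosomes behaved alike in direction, with 28 of 34 lower in TET1-KD1 after the drug and a median difference of -0.36 without and -0.61 with it. Of the 34 genes, 22 were not above background in either untreated knockdown clone, so the untreated median carries no order. *MAEL*, which guards germ cells against transposons, read 8.68 in TET1-KD1 and 10.43 in TET1-KD2, and *TDRD12*, a Tudor domain protein of the piRNA pathway, 8.54 and 10.34. The control clones differed by medians of 0.12 and -0.03 on these 2 lists after 5-aza-dC. Of the 1542 probes silent in untreated controls and raised by the drug in both, 74.1% were lower in TET1-KD1 after treatment. Their median difference was -0.62, so the direction is not particular to these lists.

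The promoters of *TDRD12* and *SOHLH2* are shown as examples of silenced genes that emerged at a lower level in TET1-KD1, with each CG, the site of DNA methylation, in capitals. Build, strand and length are as above, and both hold 20 CG in 250 bases.
TDRD12, chr19:32719517-32719766, plus strand: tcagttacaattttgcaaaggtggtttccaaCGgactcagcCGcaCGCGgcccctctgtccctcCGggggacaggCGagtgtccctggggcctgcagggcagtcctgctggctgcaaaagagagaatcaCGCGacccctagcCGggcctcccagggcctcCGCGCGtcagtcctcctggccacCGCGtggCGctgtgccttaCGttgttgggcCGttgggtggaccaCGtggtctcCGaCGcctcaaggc
SOHLH2, chr13:36214557-36214806, minus strand: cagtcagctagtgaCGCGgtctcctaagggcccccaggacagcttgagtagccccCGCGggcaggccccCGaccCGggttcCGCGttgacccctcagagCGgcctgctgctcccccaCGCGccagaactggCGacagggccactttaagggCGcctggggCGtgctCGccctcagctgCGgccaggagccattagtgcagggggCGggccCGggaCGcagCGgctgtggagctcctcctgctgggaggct
Of the 716 genes lower in TET1-KD1 after 5-aza-dC only, 482 had a promoter in the reference, with a median of 13 CG, and 59.8% had 10 or more. Over all 12164 measured genes with a promoter the median was 20 and the share 79.2%, and among the 171 genes higher in TET1-KD1 the median was 11. At least 1 CG was present in 93.6% of all 27305 promoters.

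Differences that were 2-fold without 5-aza-dC and not after it concerned 775 probes higher (2.61%) and 513 lower (1.73%) in TET1-KD1. Of the 10 genes with the largest such difference, 8 were above background on a single array of 8, as *RAD9B* at 8.84 on the untreated TET1-KD1 array and 2.03 to 2.73 on all others, and no second probe was there to check them. *TFPI2*, a protease inhibitor silenced by methylation in many colorectal cancers, was the clearest of the rest. Untreated TET1-KD1 read 8.49, while TET1-KD2, CONT1 and CONT2 were not above background (2.32, 2.12 and 1.93). After the drug all 4 clones expressed it, at 7.83, 7.93, 8.07 and 6.53. At 47 probes the sign turned between treatments.

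Of the other lists, metallothioneins, small metal-binding proteins, were lower in TET1-KD1 at 10 of 11 genes without and 11 of 11 with 5-aza-dC, with medians of -0.75 and -0.25. The control clones differed on this list by -0.28 and -0.58, none of its genes was 2-fold lower in both treatments or called with the intensity trend, and probes of these near-identical genes may share signal. In the MHC class I pathway, 18 of 20 genes were lower in TET1-KD1 after 5-aza-dC, with a median of -0.25 and none 2-fold in both treatments. Of 29 p53 targets, 25 were higher in TET1-KD1 after the drug (median 0.37 against 0.25 without it), whereas *GDF15*, a target that also responds to other stress, was lower at 15.17 against 16.27 and 16.11 against 16.70. Of 29 imprinted genes, 2 were 2-fold lower in TET1-KD1 in both treatments, the neighbors *H19* and *IGF2* on chromosome 11. Over all 16085 genes, 1.45% were lower in this way. *H19* read 4.16 (not above background) and 8.44 against 6.92 and 12.51, and *IGF2* 10.96 and 11.69 against 12.31 and 13.48. Among WNT targets, the crypt receptors *EPHB2* (7.46 and 7.82 against 8.50 and 8.78) and *EPHB3* (5.37 and 6.44 against 6.44 and 7.87) were lower. In the list of epithelial-mesenchymal transition, members differed in both directions. *SNAI2* read 6.05 and 5.25 in TET1-KD1 and was not above background in TET1-KD2, while *TWIST1* read 1.96 (not above background) and 5.28 against 6.58 and 7.20. Of the secreted signals, *CXCL1* (3.61, not above background, and 5.93 against 6.13 and 7.57) and *LIF* (9.21 and 9.49 against 11.40 and 11.06) were lower, with controls at 6.5 or above and 10.94 or above. *NT5E*, whose product removes phosphate from nucleotides outside the cell, was the one member of 23 in the list of 5-aza-dC uptake, activation and breakdown with a 2-fold difference in both treatments, at 12.01 and 12.04 against 10.80 and 10.95. Its controls read 9.65 and 11.37 without and 11.22 and 12.51 with the drug. As 1.14% of all genes were 2-fold higher in both treatments, a single member does not set this list apart. No gene of these lists passed in limma's main test. Ribosomal proteins, DNA methyltransferases and cell-cycle genes had no member with a 2-fold difference in both treatments, and their median differences lay between -0.14 and 0.29. Small shifts were present, with TET1-KD1 higher at 4 of 71 ribosomal protein genes without and 39 with the drug. For mitosis genes these counts were 20 and 28 of 34, for replication genes 18 and 27 of 39, and for DNA methyltransferases and partners 9 and 5 of 14. Beside all such counts of direction, 8261 and 8090 of all 16085 genes were higher.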

How the data were processed

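Total RNA of the 8 cultures was labeled with Cy3 and hybridized to one-color SurePrint G3 arrays. The authors deposited the spot intensities of each array as Agilent Feature Extraction 10.7 wrote them, with the background subtracted and no scaling between arrays, and probe positions on hg19. The authors' value table of the series holds the same intensity values rounded, and was used as an alternative. The labels conflict on treatment, and titles were followed.

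Each array was scaled so that the 75th percentile of its non-control spots equaled the geometric mean over the 8 arrays. Values below 1 were set to 1 and log2 was taken. Flagged spots were dropped, and spots of 1 probe averaged. A probe was above background when at least 0.5 of its spots were. Symbols came from the probe's RefSeq accession where the GRCh38.p14 gene table held it (21383 of 29669 tested probes) and otherwise from the files. Depth here is brightness: the median coefficient of variation of repeated bright probes was 2.65% to 4.0% per array, and 1 array per clone and treatment limits the precision.

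The clone difference was fitted with limma 3.58.1 (R 4.3.3) on the 4 knockdown arrays with treatment as the block that pairs the clones, and the same in the control clones. The difference in response used all 8 arrays, where the residual degree of freedom is that of the control clones. P-values were adjusted by Benjamini-Hochberg, with a threshold of 0.05. The functions were tested on simulated data, in which the fit of the difference in response gave more false calls than its threshold allows. Tables were made with pandas 2.3.3 and plots with matplotlib 3.10.9.

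Named genes were, by the brightest tested probe of each symbol, the 12 in each direction with the largest smaller difference of the 2 treatments, the 12 in each direction with the largest difference after 5-aza-dC only, the 5 in each direction with the largest difference before only, TET1 to TET3 and the 4 RT-qPCR genes, and up to 4 members of each list by mean difference. Genes named in lists beyond these (among them *GAGE7*, *PAGE1*, *MAGEA10*, *IFI6*, *IFIT2*, *IFIT3*, *IFIH1*, *IRF9*, *ISG15*, *OAS1*, *SAMD9*, *KRT13*, *KRT23* and *TRIM22*) were chosen after their values were seen. Probes without a symbol and genes of the Y chromosome were not named, and some values are not reported here. The members and lists were chosen with earlier results of these data known. Alternatives were normexp (offset 50), quantile normalization, 2 filters on dim probes, an offset of 50, flagged spots kept, the value table, other sets of arrays and models, and each array left out. Promoters were taken from RefSeq on GRCh38.p14, with the first listed start where a gene had several.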

Additional observations from a re-analysis of the deposited data

Results flagged for a closer look

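The clone difference had opposite signs in the 2 treatments at 47 probes, each 2-fold or more both times, and at 40 of them TET1-KD1 was the higher clone without and the lower clone with 5-aza-dC. This difference between treatments was not tested for the group. *LDOC1* read 4.45 in TET1-KD1 and 2.32 in TET1-KD2 without and 7.19 and 10.79 with the drug, *MAGEC2* 6.28 and 2.5, then 6.64 and 9.74, and *APOBEC3G* 4.45 and 2.28, then 4.74 and 7.03. These 3 were picked after their values were seen, and in each the lower untreated value was not above background. A second *MAGEC2* probe was not above background in either untreated clone (2.08 and 2.44) and read 8.42 and 11.63 after the drug, so its probes disagree on the untreated difference.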

How the results depend on the processing

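The count of probes called for the clone difference was 0 in the main test and 0 with quantile normalization, no filter, 50 added before the log, flagged spots kept, the value table, all 8 arrays, the t-test of the methods (1912 at an unadjusted p below 0.05) and no replicate block (1634). Without each knockdown array in turn, in the fit of 8 arrays, it was 0 to 0 (4622 to 4859 at an unadjusted p below 0.05). There the spread comes from the control clones and the difference from 1 treatment, so this count says nothing about stability. It was 408 with normexp, 587 with probes above background on all 4 knockdown arrays, 534 with the spread of the control clones and 1199 with the intensity trend. The difference in response had 0 calls, also without the replicate block, but 47 with normexp and 1 with the intensity trend. The 746 probes held in both treatments became 253 with normexp, 441 with the stricter filter and 275 with 50 added before the log, and the 2095 after 5-aza-dC became 377, 316 and 442. The lower share of the latter was 69.9%, and 74.0% with normexp, 62.4% with quantile normalization, 73.5% with 50 added and 45.9% with the stricter filter. Both offsets compress dim signals, and the filter removes genes silent before treatment. The median of chromosome 21 was -0.51 and -0.52 with normexp and -0.52 and -0.54 with 50 added before the log. The median response difference of -0.39 was -0.24 with normexp and -0.37 with probes chosen in the control arrays alone, an alternative added after the data were seen. Of 38 genes followed through the alternatives, the sign turned in *DKK3* alone, at -0.14 without either untreated knockdown array, and leaving out each array gave its difference in 1 treatment, -0.14 to 1.31, around the mean of 0.59. Many of the 38 were chosen for a large difference of the same sign in both treatments, so a turn was unlikely for them. For the 24 genes with the largest differences after 5-aza-dC only, 48 of 144 values moved in size, and each gene had such a value. Signal over background limits genes silent in 1 clone, whose fold is a bound.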
